A study of Rattus norvegicus with 52 samples.

Results

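Rat lungs that had received BKC at a dose of 1 were compared with rat lungs that had received BKC at 0.5, the upper step of its dose range, over all genes. The comparison used 8 of the 52 libraries of the series, all 4 titled BKC 1 and all 4 titled BKC 0.5, chosen by their titles. All animals were wild-type SD (Sprague Dawley) rats, and each dosed rat had a single instillation of one quaternary ammonium compound into the trachea. The labels state neither a dose unit nor an age. The groups that appear below are BKC 1, BKC 0.5 and BKC 0.25, ADEB18 0.5 and ADEB18 0.25, and Control, which was instilled with what the labels call DW. For a single gene, DDAC 0.25 and ADEB18 0.125 appear too. Each group had 4 libraries of 3' mRNA reads from lung tissue. Nothing in the labels says whether rats were pooled, and p-values below rest on the spread between libraries alone.

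BKC is the usual abbreviation of benzalkonium chloride, a cationic surfactant used as a disinfectant. Quaternary ammonium compounds insert into lipid membranes and can lyse cells. Injured airway and alveolar epithelium releases cytokines and chemokines that bring neutrophils and monocytes into the lung, and surviving epithelial cells divide to close the defect. Proteins damaged by such an agent induce heat shock genes, and a lung under repair makes matrix and the proteases and inhibitors that remodel it. The upper dose step asks whether these programmes differ further once the lower of the 2 doses has been reached.

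Total counts were 8666430 to 11836515 in the BKC 1 libraries and 9485575 to 9627153 in the BKC 0.5 libraries, and 8026084 to 13852249 over the series. Of 10 lung markers 9 could be tested, Marco being the exception. Sftpc, the surfactant protein of alveolar type 2 cells, ran from 7230 to 12999 CPM (library-size-scaled counts, the level used throughout) in BKC 1 and from 7934 to 11027 CPM in BKC 0.5, and Ager, of alveolar type 1 cells, from 1019 to 1553 CPM and from 758 to 1887 CPM in the same order of groups. By the correlation of libraries, the 2 groups were as alike as the libraries within them. Whether this measure separates groups with called genes was not tested. Pearson correlations of log2 CPM over 17796 genes averaged 0.953 over the 6 pairs within BKC 1, 0.953 over the 6 pairs within BKC 0.5 and 0.953 over the 16 pairs between them. BKC 1 replicate 4 stood furthest out along the first principal component, at -55.2 (27% of the variance of the 2000 most variable genes), beside -2.75 to 17.9 in the other BKC 1 libraries and -33.8 to 35.4 in BKC 0.5.

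No gene was called between BKC 1 and BKC 0.5. edgeR's quasi-likelihood test gave 0 of 17796 genes (0%) at a Benjamini-Hochberg adjusted p under 0.05, with a smallest adjusted p of 0.727. Taken unadjusted, 669 genes (3.76%) had p under 0.05, 383 of them higher (2.15%) and 286 lower (1.61%) in BKC 1. Under the fold rule of the series description, unadjusted p under 0.05 with at least a 2-fold difference, 75 genes were higher (0.421%) and 120 lower (0.674%). DESeq2's Wald test called 1 gene (0.00562%), Pp2d1, whose counts were 0, 27, 26 and 0 in BKC 1 replicates 1 to 4 and 0 in every BKC 0.5 library (adjusted p = 0.0101), and its call came from 2 libraries.

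The median size of a log2 fold change was 0.18, with a median standard error of 0.27. The 95% interval of the difference lay inside 2-fold either way for 10746 genes (60.4%), and for the other genes it reached a 2-fold difference in at least 1 direction. All 4 BKC 1 libraries lay on 1 side of all 4 BKC 0.5 libraries for 417 genes (2.34%), 239 higher (1.34%) and 178 lower (1%). The lower step, BKC 0.5 against BKC 0.25, called 733 genes in the same fit (4.12%), 479 of them higher (2.69%) and 254 lower (1.43%). DESeq2 called 1160, or 8.72% of the 13309 genes to which it gave an adjusted p. The edgeR count depended on single libraries. It was 50 without BKC 0.5 replicate 3, 402 without BKC 0.5 replicate 2 and 1230 without BKC 0.5 replicate 4. It was 132, 213 and 475 without BKC 0.25 replicates 4, 3 and 2. Both steps use the BKC 0.5 libraries, and the plot of both sets them side by side. Against Control, BKC 1 called 1842 genes (10.4%), 1030 higher (5.79%) and 812 lower (4.56%), and BKC 0.5 called 1629 (9.15%), 865 higher (4.86%) and 764 lower (4.29%). The BKC 1 count was 1067 without Control replicate 4, 1113 without BKC 1 replicate 2 and 1143 without BKC 1 replicate 4. The BKC 0.5 count was 457 without BKC 0.5 replicate 3, 895 without Control replicate 4 and 1055 without Control replicate 2.

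**Figure D1:**
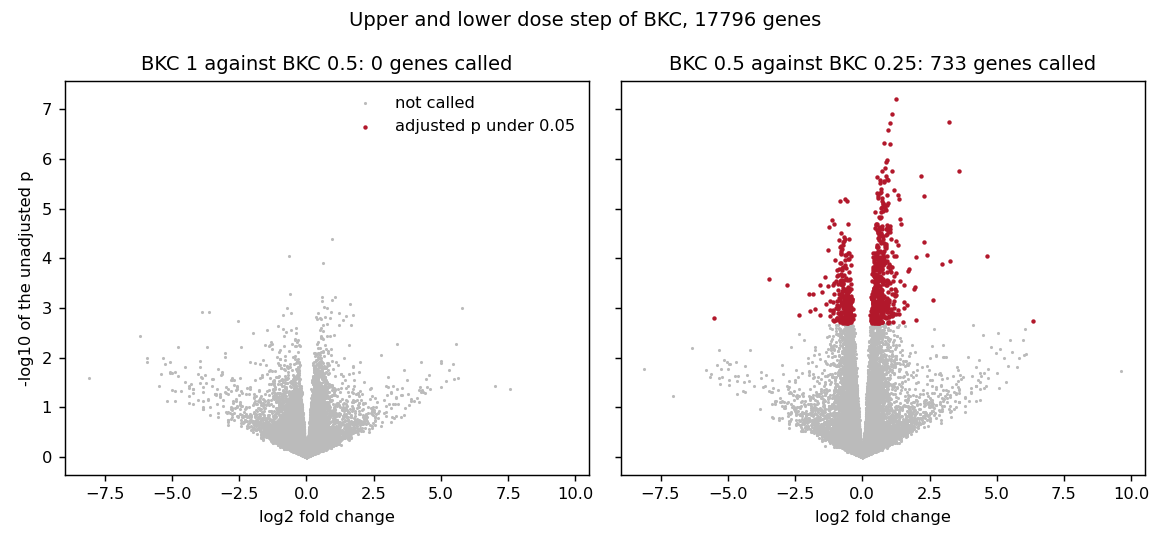
Each point is 1 of 17796 genes, with its log2 fold change on the x axis and the -log10 of its unadjusted edgeR p on the y axis, for BKC 1 against BKC 0.5 (left) and BKC 0.5 against BKC 0.25 (right). Red points have an adjusted p under 0.05: there are 0 on the left and 733 on the right.

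No gene of the inflammatory lists was called between the 2 doses, and most of their members were not called above Control either. Over all genes 5.79% were called above Control in BKC 1 and 4.86% in BKC 0.5. Of 9 monocyte chemokines and receptors 3 were called above Control in BKC 1 and 3 in BKC 0.5. Of 21 recruited monocyte and macrophage markers it was 8 and 7, of 12 acute phase genes 4 and 4, and of 14 neutrophil markers 0 and 0. Of 19 neutrophil chemokines and early inflammatory cytokines it was 3 in BKC 1 and 2 in BKC 0.5. This last count was 1 in BKC 1 without its replicate 3 and 1 in BKC 0.5 without its replicate 2. Ccl2, a chemokine that attracts monocytes, had 77.5, 106, 60.8 and 96.4 CPM in BKC 1, against 64, 57.8, 94.3 and 29.7 CPM in BKC 0.5. The 2 groups overlapped, and the log2 fold change was 0.47 ± 0.47 (SE; 95% interval -0.49 to 1.42, adjusted p = 1). In BKC 0.25 Ccl2 had 5.10 to 7.69 CPM, and in Control 2.59 to 7.03 CPM. BKC 0.5 differed from BKC 0.25 by 3.24 on the log2 scale (adjusted p = 0.000831), and no left-out library ended that call.

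The related chemokines gave the same picture of overlap. Ccl7 had 61.2, 133, 51.2 and 68.3 CPM in BKC 1, against 50.4, 68.9, 96.7 and 40.1 CPM in BKC 0.5 (log2 fold change 0.29 ± 0.52). Ccl12 had 49.1, 99.3, 41.5 and 52.3 CPM in BKC 1, against 53.8, 69, 90.3 and 27.5 CPM in BKC 0.5 (0.01 ± 0.58). Among both chemokines the highest BKC 1 library was replicate 2 and the highest BKC 0.5 library was replicate 3. Of 9 monocyte chemokines and receptors tested 0 had an unadjusted p under 0.05, 7 had a positive log2 fold change, and the median was 0.20, beside 0.00 over all genes. Without BKC 1 replicate 2 the median was -0.02, with 3 of 9 positive.

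Spp1, which codes for osteopontin, had 369, 425, 89.2 and 229 CPM in BKC 1, against 498, 102, 408 and 129 CPM in BKC 0.5, so both groups held libraries far apart from each other. Its log2 fold change was -0.03 ± 0.91, with a wide 95% interval of -1.87 to 1.80. Saa3, a serum amyloid A of the acute phase, had 105, 86.1, 41.1 and 76.2 CPM in BKC 1, against 53.6, 31.5, 52.8 and 63.1 CPM in BKC 0.5 (0.62 ± 0.69). Lcn2, whose product binds bacterial siderophores, was the exception among the 12 genes named for the largest increases of ADEB18 0.5 or BKC 0.5 over Control, since its groups did not overlap. It had 2416, 1425, 1535 and 1612 CPM in BKC 1, against 716, 1385, 800 and 1248 CPM in BKC 0.5, and the log2 fold change of 0.75 ± 0.79 did not pass the test (adjusted p = 1).

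The other genes of that set of 12 were Il24, Slc25a5, Ppp4c, Mmp12, Fam25a and Kng2. None of the 12 had an unadjusted p under 0.05 in the upper step, 9 had a positive log2 fold change, and the values ran from -0.14 for Mmp12, the macrophage elastase, to 1.2 for Kng2, a kininogen. For 0 of the 12 did the 95% interval lie inside 2-fold either way. Over all genes 3.76% had an unadjusted p under 0.05, 50.3% were positive and 60.4% had such an interval, and 2.34% had no overlap. Some of the 12 were chosen with the BKC 0.5 libraries, so nothing is read from these counts. Timp1, an inhibitor of metalloproteases, had 391, 1031, 359 and 1265 CPM in BKC 1, against 463, 435, 792 and 224 CPM in BKC 0.5, with replicates 2 and 4 of BKC 1 above every BKC 0.5 library and replicates 1 and 3 below the BKC 0.5 replicate 2 value (log2 fold change 0.67 ± 0.35, unadjusted p = 0.064). Without BKC 1 replicate 4 its log2 fold change was 0.31.

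**Figure D2:**
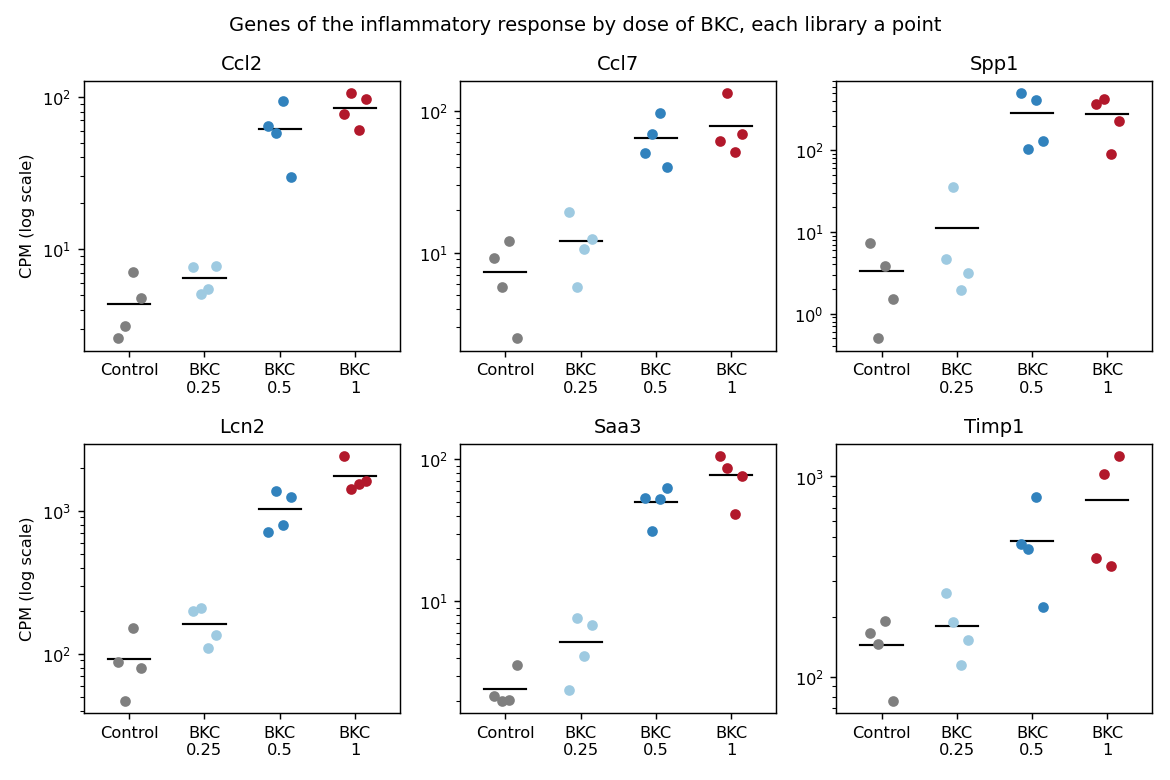
CPM (log scale, y axis) of 6 genes in the 4 libraries each of Control, BKC 0.25, BKC 0.5 and BKC 1 (x axis), with each library a point and the bar the mean. The BKC 1 points overlap those of BKC 0.5 for each gene shown except Lcn2, where the lowest BKC 1 library had 1425 CPM and the highest BKC 0.5 library 1385 CPM.

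Among chemokines and cytokines that act on neutrophils, the one with an unadjusted p under 0.05 was Cxcl1. Cxcl1, a neutrophil attractant, had 25.2, 5.34, 46.6 and 10.3 CPM in BKC 1, against 10.6, 10.2, 6.10 and 8.78 CPM in BKC 0.5. Replicates 1 and 3 of BKC 1 were above every BKC 0.5 library, and replicate 2 was below all of them. The log2 fold change was 1.29 ± 0.55 (unadjusted p = 0.0219, adjusted p = 1), and without BKC 1 replicate 3 it was 0.62. Cxcl2, a close relative, had 2.32 to 4.02 CPM in BKC 1 and 0.419 to 1.46 CPM in BKC 0.5 without overlap (1.83 ± 0.93). That 1 of 19 stands beside 3.76% of all genes, 14 of the 19 were positive, beside 50.3% of all genes, and the median log2 fold change was 0.26. Without BKC 1 replicate 3 there were 0 at an unadjusted p under 0.05 and 11 of 19 positive, with a median of 0.05, and without BKC 0.5 replicate 3 the median was 0.13. Among 14 neutrophil markers none had an unadjusted p under 0.05, and the median was -0.09, or 0.08 over 15 markers without BKC 1 replicate 2. In bulk tissue, fewer cells of a type and less RNA per cell cannot be told apart.

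Of the 15 genes named for the largest decreases of ADEB18 0.5 or BKC 0.5 below Control, 2 were higher and 1 was lower in BKC 1 than in BKC 0.5 at an unadjusted p under 0.05. All 15 overlapped between the 2 doses, where 2.34% of all genes did not, and some were chosen with the BKC 0.5 libraries, so nothing is read from that count. Serpinb10, a serine protease inhibitor of blood cells, had 1.62, 1.28, 2.75 and 1.09 CPM in BKC 1, against 5.13, 1.57, 2.42 and 5.96 CPM in BKC 0.5, where replicates 1 and 4 were the high ones (log2 fold change -1.17 ± 0.48, unadjusted p = 0.0184, adjusted p = 1). In BKC 0.25 it had 6.15 to 8.65 CPM and in Control 9.90 to 20.1 CPM. Spon2, a secreted matrix protein, had 43.1, 29.7, 78.4 and 38.0 CPM in BKC 1, against 44.6, 51.5, 27.7 and 90.2 CPM in BKC 0.5, with 160 to 275 CPM in Control. Adra2b, an adrenergic receptor, had 1.28 to 6.25 CPM in BKC 1 and 1.57 to 5.66 CPM in BKC 0.5, with 9.16 to 18.4 CPM in Control (log2 fold change -0.01 ± 0.51).

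In the other direction, Rasl11a, a small GTPase, had 1.71, 3.95, 2.30 and 3.62 CPM in BKC 1, against 0.629, 1.99, 1.26 and 2.30 CPM in BKC 0.5. The groups overlapped, and the log2 fold change was 0.90 ± 0.41 (unadjusted p = 0.0358). Adgrv1, an adhesion receptor, gave 0.95 ± 0.46. The remaining members were Zbtb16, Syt6, Cpa3, Abcd2, Kcnmb2, Adm, Cyp26b1, Dlk1, Cyp1a1 and Cntn1, and none of them had an unadjusted p under 0.05. Zbtb16, a transcription factor induced by glucocorticoids, had 27.5 to 65.8 CPM in BKC 1, 32.5 to 51 CPM in BKC 0.5 and 75.1 to 388 CPM in Control. Cyp1a1, a cytochrome P450 under the aryl hydrocarbon receptor, varied most: it had 14.1, 0.465, 2.75 and 0.362 CPM in BKC 1 and 1.58 to 7.32 CPM in BKC 0.5, and its log2 fold change of -0.05 became -2.02 without BKC 1 replicate 1.

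A second readout used genes picked in libraries outside the comparison. ADEB18 0.5 against Control called 829 genes (4.66%), 455 higher (2.56%) and 374 lower (2.1%). DESeq2 called 1279, or 8.92% of the 14344 genes to which it gave an adjusted p. The edgeR count fell to 288 without Control replicate 4 and to 325 without ADEB18 0.5 replicate 2. It fell to 415, 427 and 426 without Control replicate 2, ADEB18 0.5 replicate 3 and ADEB18 0.5 replicate 4. Over the 455 higher genes the mean level was 6.03, 6.08, 5.92 and 6.18 log2 CPM in BKC 1, against 5.98, 5.97, 6.25 and 5.65 log2 CPM in BKC 0.5. The BKC 1 libraries lay within the range of the BKC 0.5 libraries, whose spread came from replicate 3, the highest, and replicate 4, the lowest. BKC 0.25 had 5.40 to 5.69 log2 CPM.

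The median log2 fold change of these 455 genes between BKC 1 and BKC 0.5 was 0.05, with 293 positive (64.4%, beside 50.3% of all genes), and 16 had an unadjusted p under 0.05, 15 higher and 1 lower (3.52%, beside 3.76% of all genes). The 95% interval lay inside 2-fold either way for 393 of them (86.4%, beside 60.4% of all genes). They were called in the same fit, which favours genes with narrow intervals, so nothing is read from the higher share. The median was -0.04 without BKC 0.5 replicate 4 and 0.16 without BKC 0.5 replicate 3. In the other fits without 1 library it was positive, from 0.02 without BKC 1 replicate 4 to 0.10 without BKC 1 replicate 3. In the lower step the median of the same genes was 0.37, and 378 were positive (83.1%, beside 48.2% of all genes). Of the 455, 113 were called higher and 1 lower, beside 2.69% and 1.43% of all genes. The count called higher was 18 without BKC 0.5 replicate 3 and 173 without BKC 0.5 replicate 4. It was 41 and 45 without BKC 0.25 replicates 4 and 3.

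Over the 374 lower genes the mean level was 5.77, 5.62, 5.81 and 5.63 log2 CPM in BKC 1, against 5.73, 5.75, 5.48 and 5.94 log2 CPM in BKC 0.5. Here too the BKC 1 libraries fell within the BKC 0.5 range. The median log2 fold change was -0.01, and 11 genes were higher and 14 lower at an unadjusted p under 0.05 (6.68% together, beside 3.76% of all genes). The interval lay inside 2-fold for 342 (91.4%, beside 60.4% of all genes). As for the 455 genes, the shared fit favours narrow intervals, so nothing is read from that share. The median went no further than -0.08 without BKC 0.5 replicate 3 and 0.05 without BKC 0.5 replicate 4. In the lower step their median was -0.22, and 43 were positive (11.5%, beside 48.2% of all genes). Of the 374, 41 were called lower, beside 1.43% of all genes. That count came to 1 without BKC 0.5 replicate 3 and to 81 without BKC 0.5 replicate 4. It came to 7, 12 and 22 without BKC 0.25 replicates 4, 3 and 2, and to 20 and 23 without BKC 0.5 replicates 1 and 2.

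**Figure D3:**
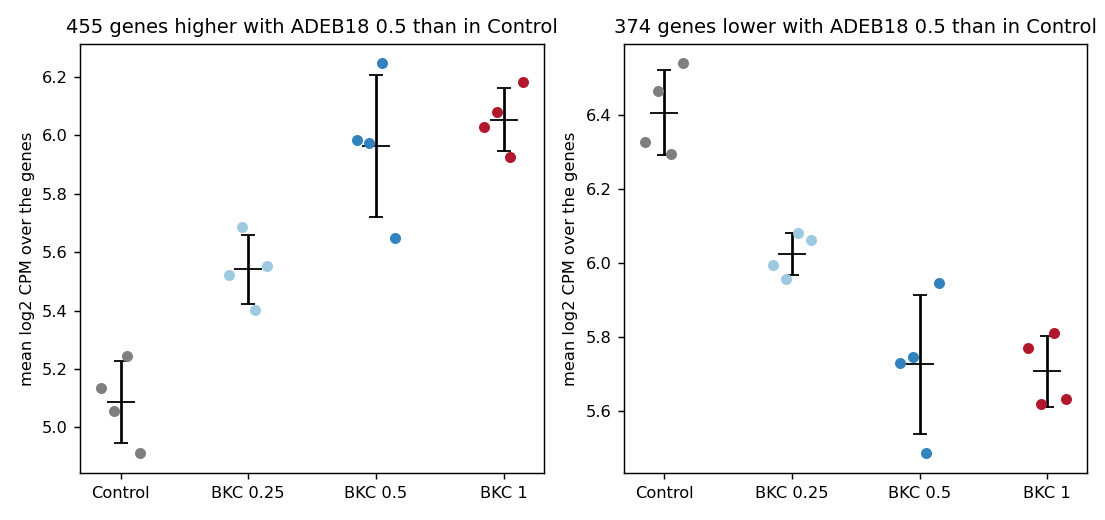
Mean log2 CPM (y axis) over the 455 genes higher (left) and the 374 genes lower (right) with ADEB18 0.5 than in Control, in each library of Control and of the 3 BKC doses (x axis), with the mean and SD of 4 libraries. The Control libraries were among those that chose these genes, whereas the BKC libraries were not, and the BKC 1 points lie inside the range of the BKC 0.5 points in both panels.

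By the rule for named genes, the 12 smallest p-values in each direction were taken among genes whose groups did not overlap and that averaged at least 5 CPM in 1 group, and none of the 24 passed the test. The smallest unadjusted p over all genes belonged to Hspa1a, which codes for the stress-inducible cytosolic Hsp70. Hspa1a had 25.4, 41.4, 38.0 and 41.5 CPM in BKC 1, against 19.6, 18.7, 16.2 and 21.6 CPM in BKC 0.5. Every BKC 1 library was above every BKC 0.5 library, with BKC 1 replicate 1 the nearest to them. The log2 fold change was 0.94 ± 0.21 (95% interval 0.52 to 1.36, unadjusted p = 4.19e-05, adjusted p = 0.727), and over the alternatives tried the adjusted p ran from 0.106 to 1. The level in BKC 0.5 was also below the 26.2 to 32.8 CPM of BKC 0.25 and the 22.9 to 31.5 CPM of Control. Over the 13 groups of the series the means ran from 19 CPM in BKC 0.5 to 41.9 CPM in DDAC 0.25. The mean of ADEB18 0.125 was nearly as low, at 19.1 CPM.

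Hspa1b is a near-identical copy of Hspa1a, and how well reads of these copies were told apart was not tested. Hspa1b had 30.2, 48.8, 58.0 and 65.5 CPM in BKC 1, against 22.0, 23.9, 32.5 and 19.6 CPM in BKC 0.5 (log2 fold change 1.05 ± 0.28, unadjusted p = 0.000617, adjusted p = 1). The groups overlapped only through BKC 1 replicate 1 and BKC 0.5 replicate 3. Hspb1, a small heat shock protein, gave 0.33 ± 0.14 and Bag3, a co-chaperone of Hsp70, 0.29 ± 0.13, or 0.15 and 0.18 without BKC 1 replicate 4. These 4 were the members of 12 cytosolic heat shock genes with an unadjusted p under 0.05, all higher, beside 2.15% of all genes, and 9 of the 12 were positive, with a median of 0.22. Without BKC 1 replicate 4 there were 2 higher and 1 lower. The mean level of the list was 6.34 to 6.80 log2 CPM in BKC 1 and 6.20 to 6.39 log2 CPM in BKC 0.5, which overlapped.

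The other genes on the higher side carried out unrelated tasks. Ctso, cathepsin O, a lysosomal protease, had 13.3, 9.99, 11.6 and 11.6 CPM in BKC 1, against 7.02, 6.08, 6.63 and 4.18 CPM in BKC 0.5 (log2 fold change 0.96 ± 0.26). Its BKC 1 values were within the 7.40 to 14 CPM that Control and BKC 0.25 spanned together, and its BKC 0.5 values were below it. Polr3a, the largest subunit of RNA polymerase III, had 17.4, 20.7, 17.3 and 12.4 CPM in BKC 1, against 11, 9.65, 12.3 and 9.83 CPM in BKC 0.5 (0.66 ± 0.19), and 11.6 to 20.8 CPM in Control. Zfp706, a small zinc finger protein, had 52.2 to 61.6 CPM in BKC 1 and 34.6 to 42 CPM in BKC 0.5, where Control had 34.4 to 47.9 CPM, so here the BKC 1 libraries were the ones outside the Control range (0.58 ± 0.16).

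Trim32, a ubiquitin ligase, gave 0.58 ± 0.16, and Saraf, which restrains store-operated calcium entry, 0.35 ± 0.10. Pnpt1, a mitochondrial ribonuclease, had the largest log2 fold change of these 12, 1.72 ± 0.51, at 4.53 to 10.2 CPM in BKC 1 and 1.78 to 2.10 CPM in BKC 0.5. Cd69, an early activation antigen of lymphocytes, had 3.68 to 6.89 CPM in BKC 1 and 1.47 to 2.94 CPM in BKC 0.5 (1.36 ± 0.41), with 5.09 to 12.2 CPM in Control. The remaining genes were Hs3st6, Gjc1, Tmed7 and Lgalsl, between 0.52 and 1.21, and the largest unadjusted p of the 12 was 0.00175.

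On the lower side, Akna, a transcription factor with an AT-hook, had 18.9, 17.7, 19.3 and 12.8 CPM in BKC 1, against 21.6, 32.8, 26.6 and 23.7 CPM in BKC 0.5 (log2 fold change -0.61 ± 0.16, unadjusted p = 0.000528, adjusted p = 1). Tf, transferrin, the iron carrier, had 89.5, 72.0, 55.2 and 59.6 CPM in BKC 1, against 107, 109, 91.6 and 99.3 CPM in BKC 0.5 (-0.56 ± 0.16). Control had 93.7 to 141 CPM of Tf, so the BKC 0.5 libraries lay at its low end and the BKC 1 libraries below it. Strbp, Rbsn, Arid4a, Cbx1, Nsrp1, Giot1 and Pwwp3a were the other members outside cilia, between -0.98 and -0.29, and Rbsn codes for an endosomal sorting protein and Cbx1 for a heterochromatin protein.

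Mme and Rarres2 shared the smallest adjusted p of 0.727 with Hspa1a but overlapped between the groups, and they are named here after their values were seen. Mme, neprilysin, a membrane peptidase, had 39.7, 36.7, 50.4 and 33.1 CPM in BKC 1, against 53.9, 61.2, 50.1 and 85.4 CPM in BKC 0.5 (log2 fold change -0.65 ± 0.15), and 78.4 to 89.5 CPM in Control. The overlap came from BKC 1 replicate 3 and BKC 0.5 replicate 3 alone. Rarres2, which codes for chemerin, an attractant for macrophages and dendritic cells, had 197, 290, 196 and 353 CPM in BKC 1, against 149, 189, 201 and 146 CPM in BKC 0.5 (0.60 ± 0.14), and replicates 2 and 4 of BKC 1 were the high ones.

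Of 19 ciliated cell and axoneme genes tested, 17 had a negative log2 fold change, and the median was -0.44. Of these, 1 had an unadjusted p under 0.05, beside 3.76% of all genes, and it was Dnai2, a dynein intermediate chain (-0.95 ± 0.42). That count was 0 without BKC 1 replicate 4, 2 without BKC 0.5 replicate 3 and 3 without BKC 1 replicate 3. Outside that list, 3 of the 12 genes named for a small p on the lower side also belong to cilia or their cells, and their lack of overlap was a condition of that choice. Dnah3, a heavy chain of axonemal dynein, had 8.64, 8.83, 9.30 and 5.89 CPM in BKC 1, against 26, 16.7, 13.4 and 23 CPM in BKC 0.5 (log2 fold change -1.28 ± 0.44, adjusted p = 1). Cfap74, a protein of the cilium, had 2.17 to 3.79 CPM in BKC 1 and 4.10 to 10.04 CPM in BKC 0.5 (-1.36 ± 0.47). Akap14, a kinase anchor, had 1.86 to 3.56 CPM in BKC 1 and 4.32 to 8.17 CPM in BKC 0.5 (-1.46 ± 0.46).

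The level of the ciliated cell list was 4.28, 3.70, 4.65 and 3.84 log2 CPM in BKC 1, against 4.78, 4.70, 4.23 and 4.77 log2 CPM in BKC 0.5, and 4.03 to 4.76 log2 CPM in Control. BKC 1 replicate 3 and BKC 0.5 replicate 3 each lay on the far side of their group, so the 2 groups overlapped. The median stayed negative in each fit without 1 of the 8 libraries, from -0.72 without BKC 1 replicate 3 to -0.31 without BKC 1 replicate 4. Goblet and mucous genes (median -0.36 over 11) and club cell markers (-0.17 over 12), which like cilia belong to the conducting airways, had 0 members with an unadjusted p under 0.05. Leaving out 1 library moved these medians from -0.63 to -0.09 for goblet genes, without BKC 1 replicates 1 and 4, and from -0.39 to -0.01 for club cell markers, without BKC 1 replicates 3 and 2. How much airway each lung piece held was not tested.

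Markers of NK and cytotoxic cells had 4 of 9 members with an unadjusted p under 0.05, all lower, beside 1.61% of all genes. Gzmk, a granzyme, had 13.9, 13.2, 18.2 and 13 CPM in BKC 1, against 20.8, 29.9, 15.3 and 37.5 CPM in BKC 0.5 (log2 fold change -0.82 ± 0.28), and only BKC 0.5 replicate 3 came within the BKC 1 range. Eomes, a transcription factor of these cells, had 2.67 to 4.80 CPM in BKC 1 and 3.77, 12.5, 3.68 and 18.3 CPM in BKC 0.5 (-1.39 ± 0.48, or -0.88 without BKC 0.5 replicate 4). Prf1, perforin, gave -0.72 ± 0.29, and Nkg7, a granule protein, -0.51 ± 0.23. Of the 9 members 7 were negative, and the median was -0.56. Without BKC 0.5 replicate 4, which had the highest level of each of these genes, 0 members had an unadjusted p under 0.05 and the median was -0.34.

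Several matrix and clotting genes were highest in BKC 1 replicate 4. Ccn2, connective tissue growth factor, had 223, 401, 224 and 938 CPM in BKC 1, against 262, 210, 231 and 187 CPM in BKC 0.5 (log2 fold change 1.01 ± 0.33, or 0.34 without BKC 1 replicate 4). Replicates 2 and 4 of BKC 1 stood above every BKC 0.5 library, whereas replicates 1 and 3 lay inside the BKC 0.5 range. Col4a1, a collagen of basement membranes, had 772, 917, 719 and 1544 CPM in BKC 1, against 713, 672, 735 and 839 CPM in BKC 0.5, and again replicates 2 and 4 of BKC 1 were above the rest (0.42 ± 0.15, or 0.12 without BKC 1 replicate 4).

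Lox, which cross-links collagen, had 153, 160, 124 and 482 CPM in BKC 1, against 159, 141, 107 and 140 CPM in BKC 0.5. Its log2 fold change of 0.75 ± 0.23 became 0.09 without BKC 1 replicate 4, and the other 3 BKC 1 libraries overlapped BKC 0.5. Col12a1, a collagen, had 175 CPM in BKC 1 replicate 4, 38.7 to 59.9 CPM in the other BKC 1 libraries and 36.2 to 47.6 CPM in BKC 0.5 (0.93 ± 0.33, or 0.22 without that library). F3, tissue factor, had 176 CPM there, 38.5 to 55.1 CPM in the other BKC 1 libraries and 12.1 to 48.2 CPM in BKC 0.5 (1.29 ± 0.62, or 0.49). Krt7, a keratin of simple epithelia, had 594 CPM there and 215 to 311 CPM in the other BKC 1 libraries, and its log2 fold change of 0.37 became -0.03.

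Counted over the lists, 5 of 26 collagen and matrix genes had an unadjusted p under 0.05, all higher (Lox, Col4a1, Col12a1, Pdgfra and Fn1), beside 2.15% of all genes. There was 1 of 26 without BKC 1 replicate 4, 3 without BKC 0.5 replicate 1 and 8 without BKC 1 replicate 3. The list median was 0.19, and 0.05 without BKC 1 replicate 4. Of 14 coagulation and fibrinolysis genes 3 had an unadjusted p under 0.05, all higher, F3 and Plat, tissue plasminogen activator, among them. There were 0 without BKC 1 replicate 4, 1 without BKC 0.5 replicate 2 and 5 without BKC 0.5 replicate 3. Pdgfra, the platelet-derived growth factor receptor of fibroblasts, was an exception, with 76.2, 75.2, 64.6 and 74.6 CPM in BKC 1, against 51.5, 58.1, 63.1 and 62.6 CPM in BKC 0.5, no overlap, and a log2 fold change of 0.30 ± 0.12. Pdgfrb, the receptor of pericytes, had 37.1 to 49.4 CPM in BKC 1 and 25.5 to 34.7 CPM in BKC 0.5, also without overlap (0.52 ± 0.19, unadjusted p = 0.00905, adjusted p = 1).

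Of 14 metalloproteases and inhibitors 2 had an unadjusted p under 0.05, both higher, beside 2.15% of all genes. They were Adamts1, which cleaves proteoglycans (1.46 ± 0.43), and Timp3, a matrix-bound inhibitor (0.44 ± 0.19). Without BKC 1 replicate 4 Adamts1 stood at 1.07 and Timp3 at 0.09. The count was 4 without BKC 1 replicate 1 or 3 and 1 without BKC 0.5 replicate 1. Cspg4, a pericyte proteoglycan, had 28.8, 33.2, 22.2 and 48.3 CPM in BKC 1, against 19.8, 22.9, 16.3 and 18.4 CPM in BKC 0.5 (0.78 ± 0.22), with only BKC 1 replicate 3 below the highest BKC 0.5 library. Of 23 endothelial markers 19 were positive, beside 50.3% of all genes, with a median of 0.15. Both members with an unadjusted p under 0.05 were higher, 2 of 23 beside 2.15% of all genes. These were Sox17, an endothelial transcription factor (0.49 ± 0.18, or 0.19 without BKC 1 replicate 4), and Gpihbp1, which holds lipoprotein lipase on capillaries (0.68 ± 0.29). The count was 5 without BKC 1 replicate 2, 4 without BKC 0.5 replicate 2, and 1 without BKC 1 replicate 1 or 4 or BKC 0.5 replicate 1. The median ran from 0.08 without BKC 0.5 replicate 3 to 0.25 without BKC 1 replicate 2. For 21 of the 23 the 95% interval lay inside 2-fold, beside 60.4% of all genes.

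In the other direction, BKC 1 replicate 4 had the lowest level of 12 cardiac muscle genes, which mark the heart muscle sleeve of the pulmonary veins. These averaged 5.74, 4.45, 4.85 and 0.53 log2 CPM in BKC 1, against 6.48, 4.13, 5.91 and 3.10 log2 CPM in BKC 0.5. The groups overlapped, and Control ran from 0.18 to 6.86 log2 CPM. The part of such tissue in the matrix and clotting values of that library was not tested.

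**Figure D4:**
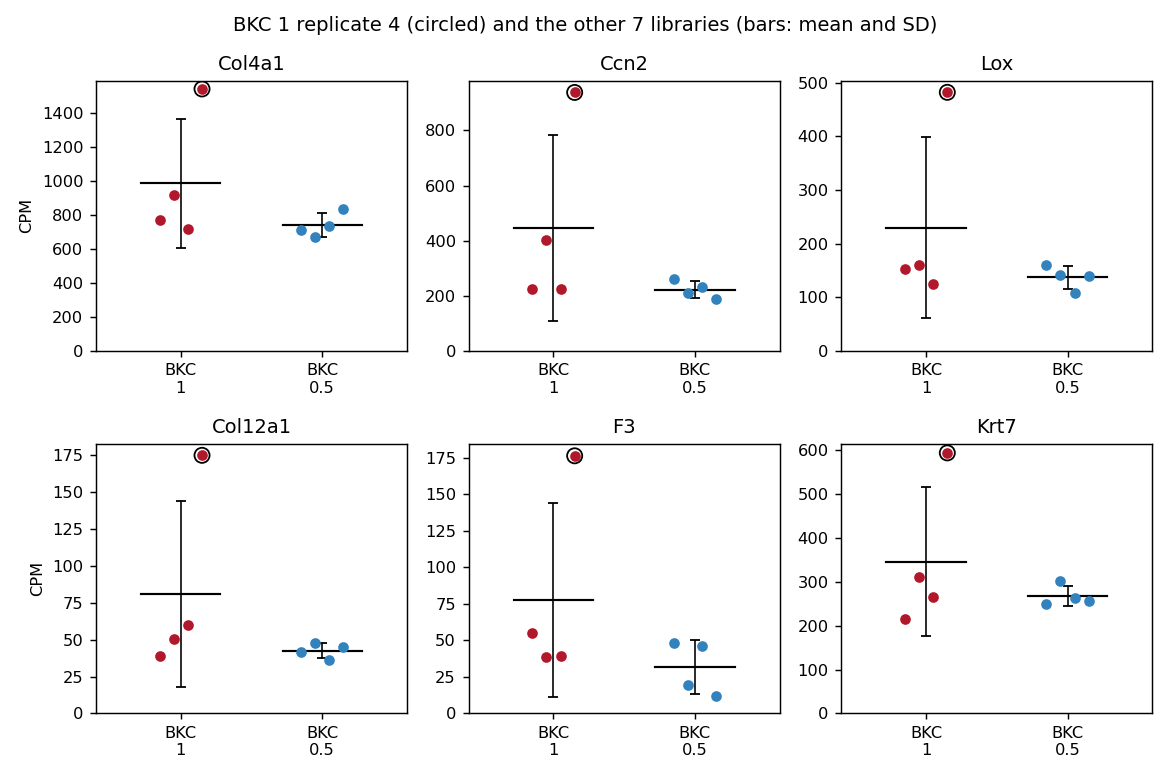
CPM (y axis, from 0) of 6 genes in the 4 BKC 1 and 4 BKC 0.5 libraries (x axis), with BKC 1 replicate 4 circled and bars for the mean and SD of 4 libraries. Without the circled library the BKC 1 points overlap those of BKC 0.5 for each gene shown.

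Genes of cell division had mostly small negative differences. Of 28 DNA replication and S phase genes 25 were negative, and the median was -0.16. Of the 28, 2 were lower at an unadjusted p under 0.05, beside 1.61% of all genes. They were E2f1, a transcription factor that starts S phase, and Lig1, DNA ligase 1. Of 30 mitosis genes 29 were negative, 0 had an unadjusted p under 0.05, and the median was -0.30. Lig1 had 175, 263, 187 and 270 CPM in BKC 1, against 256, 301, 369 and 214 CPM in BKC 0.5, with the groups overlapping (log2 fold change -0.35 ± 0.17, adjusted p = 1). Cdk1, the kinase that drives entry into mitosis, had 87.3, 139, 87.0 and 109 CPM in BKC 1, against 131, 136, 203 and 92.8 CPM in BKC 0.5, and 35.3 to 57.6 CPM in Control.

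Single libraries moved together in these genes. The mitosis list stood at 4.75, 5.57, 4.70 and 5.24 log2 CPM in BKC 1, against 5.42, 5.38, 5.88 and 4.85 log2 CPM in BKC 0.5, with BKC 0.5 replicate 3 the highest of the 8. Without that library the S phase median was 0.01, with 15 of 28 positive, and the mitosis median -0.14. BKC 0.25 had 4.34 to 4.78 log2 CPM and Control 3.85 to 4.54 log2 CPM.

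Lists that stayed near 0 included the proteasome, with a median of 0.01 over 25 subunits, the nuclear respiratory chain (-0.02 over 22), alveolar type 2 cell markers (0.03 over 13) and alveolar type 1 cell markers (-0.04 over 11). For all the tested members of these 4 lists the 95% interval lay inside 2-fold, beside 60.4% of all genes. Cholesterol synthesis and uptake genes had a median of 0.09 over 24, and Cyp51, lanosterol demethylase, had 109 to 198 CPM in BKC 1, 94.3 to 147 CPM in BKC 0.5 and 61.2 to 68.9 CPM in Control. ER chaperone and unfolded protein genes had a median of 0.15 over 25, with 21 positive, or 0.045 and 15 positive without BKC 1 replicate 4. Among them Canx, calnexin, a chaperone of glycoproteins, had an unadjusted p under 0.05 at 0.18 ± 0.09, or 0.045 without that library. Sod2, the mitochondrial superoxide dismutase of the antioxidant list, had 286 to 321 CPM in BKC 1 and 193 to 259 CPM in BKC 0.5 without overlap (0.42 ± 0.27, unadjusted p = 0.12).

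Immediate early genes had 14 of 16 positive values and a median of 0.25, with 0 at an unadjusted p under 0.05. Of 9 MHC class II genes, which present antigen, 0 were positive and the median was -0.36, which came to -0.06 without BKC 0.5 replicate 3. The member with an unadjusted p under 0.05 was RT1-Bb, at 112, 28, 27.9 and 9.33 CPM in BKC 1, against 35.6, 115, 441 and 14.1 CPM in BKC 0.5 (log2 fold change -1.77 ± 0.87). RT1-Db1, another of them, had 718 CPM in that library, 337 to 400 CPM in the other BKC 0.5 libraries and 247 to 391 CPM in BKC 1. Among 21 markers of recruited monocytes and macrophages 7 were positive, beside 50.3% of all genes. At an unadjusted p under 0.05, 1 was higher (Fn1, fibronectin, 0.43 ± 0.21) and 2 were lower, beside 2.15% and 1.61% of all genes. The median was -0.12, which turned to 0.14 without BKC 0.5 replicate 3. Adgre1, which codes for the F4/80 antigen, had 12.1, 5.69, 7.23 and 5.35 CPM in BKC 1, against 15.5, 11.3, 12.5 and 16.6 CPM in BKC 0.5 (-0.88 ± 0.26), and BKC 1 replicate 1 was the one that overlapped. Csf1r, the receptor for the macrophage growth factor, gave -0.34 ± 0.15. Cebpd, a transcription factor induced by glucocorticoids and by inflammation, had 193, 168, 146 and 154 CPM in BKC 1, against 85.4, 143, 130 and 79.1 CPM in BKC 0.5, without overlap (0.60 ± 0.28). Hlf, a clock output factor, had 83.8, 39.97, 57.3 and 41.1 CPM in BKC 1, against 71, 100, 64.9 and 91.3 CPM in BKC 0.5 (-0.56 ± 0.18).

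The difference between the 2 steps of BKC was tested directly, as the upper step minus the lower one. edgeR called 0 genes (0%), with 1680 at an unadjusted p under 0.05 (9.44%) and a smallest adjusted p of 0.167. DESeq2 called 17, or 0.161% of the 10549 genes to which it gave an adjusted p. Without BKC 1 replicate 2 edgeR called 9 genes and without BKC 0.5 replicate 4 it called 7. The steps share the BKC 0.5 libraries, so a low or high level in those 4 libraries enters both with opposite signs. The rule took only genes without overlap in at least 1 step, and the 5 of smallest p were Vps36, Ung, Tkt, Rps9 and Clpb. All 5 overlapped in the upper step, so each was taken for its lack of overlap in the lower step. That choice used the BKC 0.5 libraries, so nothing is read from the shared sign of their step differences.

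Vps36, an endosomal sorting subunit, had 72.0, 62, 62.6 and 81.1 CPM in BKC 1, against 95.6, 94.4, 92.0 and 76.2 CPM in BKC 0.5, and 53.2 to 65.2 CPM in BKC 0.25. BKC 1 thus lay between the other doses, overlapping both. The upper step was -0.37 ± 0.12 and the lower step 0.66 (adjusted p = 0.00252). Ung, uracil-DNA glycosylase of base excision repair, had 33.1, 48, 36.8 and 45.3 CPM in BKC 1, against 45.3, 58.6, 62 and 34.1 CPM in BKC 0.5, and 13.4 to 25.1 CPM in BKC 0.25.

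Tkt, transketolase of the pentose phosphate pathway, had 265, 391, 269 and 279 CPM in BKC 1, against 354, 400, 480 and 316 CPM in BKC 0.5, and 270 to 292 CPM in Control. Only BKC 1 replicate 2 reached the BKC 0.5 range, and the upper step was -0.36 ± 0.14. Rps9, a ribosomal protein, gave -0.33 ± 0.16 in the upper step and 0.89 in the lower, and Clpb, a mitochondrial chaperone, -0.20 ± 0.16 and 0.95. The 5 step differences ran from -1.56 ± 0.33 for Ung to -1.02 ± 0.21 for Vps36.

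**Figure D5:**
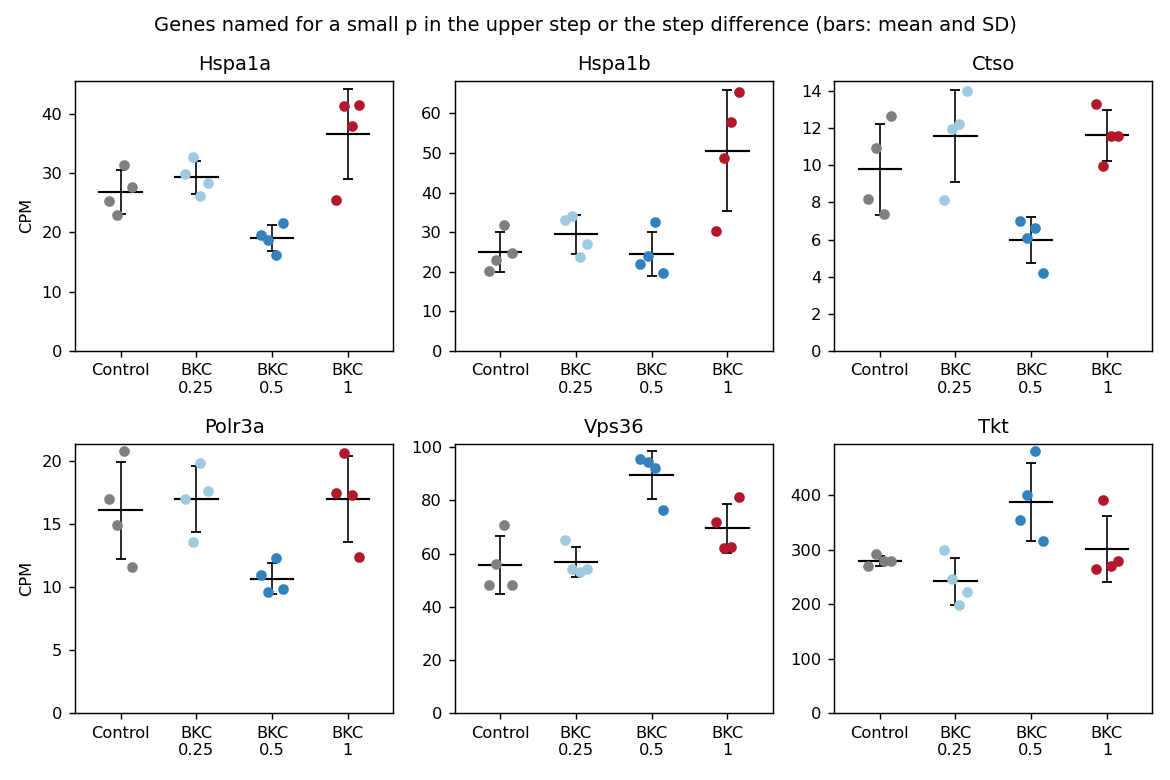
CPM (y axis, from 0) of 6 genes in the 4 libraries each of Control, BKC 0.25, BKC 0.5 and BKC 1 (x axis), with each library a point and bars for the mean and SD. Hspa1a, Hspa1b, Ctso and Polr3a are lowest and Vps36 and Tkt highest on average in BKC 0.5, and none of these genes was called between BKC 1 and BKC 0.5. For Hspa1b the mean of 24.5 CPM in BKC 0.5 is close to the 24.9 CPM of Control.

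ADEB18, another quaternary ammonium compound of the series, had its own upper step from 0.25 to 0.5. BKC and ADEB18 doses are not the same values at these steps, so the values stand side by side. edgeR called 0 genes (0%) for the difference of the 2 upper steps, BKC minus ADEB18. There were 1364 at an unadjusted p under 0.05 (7.66%), and the smallest adjusted p was 0.111. DESeq2 called 11, or 0.0872% of the 12619 genes to which it gave an adjusted p. Without ADEB18 0.25 replicate 1 edgeR called 2 genes, and without BKC 1 replicate 3 or ADEB18 0.5 replicate 1 it called 1. Ccl2 had 85.1 ± 19.9 CPM in BKC 1 and 61.4 ± 26.5 CPM in BKC 0.5, and it had 58.6 ± 14.1 CPM in ADEB18 0.5 and 10.7 ± 6.07 CPM in ADEB18 0.25 (SD, n = 4 each). Hspa1a had 36.6 ± 7.62 CPM in BKC 1 and 19 ± 2.26 CPM in BKC 0.5, and 26.5 ± 4.83 CPM in ADEB18 0.5 and 33.3 ± 7.96 CPM in ADEB18 0.25.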

How the data were processed

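The deposited files hold whole-number read counts per gene symbol for 52 libraries (34034 symbols), and per the submitters' processing notes fastp, STAR, HTSeq and the build mRatBN7.2 were used, in no stated order. The strand setting is not given in the sources used here, so overlapping and antisense genes cannot be told apart. Per the labels' protocols, RNA was taken with Trizol and made into Lexogen QuantSeq 3' libraries.

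Counts were fitted with edgeR 4.0.16 (R 4.3.3; TMM, filterByExpr by group, 1 term per group over 52 libraries, 39 residual degrees of freedom), leaving 17796 genes. The quasi-likelihood test is two-sided, and p-values were adjusted by Benjamini and Hochberg's method across these genes. CPM use TMM library sizes, and log2 CPM a prior count of 2. DESeq2 1.42.0 was an alternative, as were other filters, scalings, library subsets and leaving out each library. The tests were checked on simulated counts.

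Genes were named as follows. Up to 4 of smallest p were taken in a list. The other rules took only genes without overlap and at 5 CPM or more. In the upper step these were 12 a direction, those of smallest p where none was called. For ADEB18 0.5 and BKC 0.5 against Control they were the 10 largest called a direction, without overlap with Control. For the step difference they were the 5 of smallest p, without overlap in at least 1 step. Provisional symbols were skipped. Comparisons, lists and the rule were chosen with earlier results of these data known. A gene of the coagulation list is not reported here.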

Additional observations from a re-analysis of the deposited data

Results flagged for a closer look

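In 22 of 304 groups of 4 libraries tested, 1 library was set apart from the other 3 by Dixon's criterion. The criterion divides the gap to the nearest library by the range, so a small gap meets it where the other 3 lie close together. For independent, normally distributed values chance meets it in about 1 in 20 groups, and levels of related genes need not be such values.

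In BKC 1 replicate 4, Lox had 482 CPM beside 124 to 160 in the other BKC 1 libraries, Col12a1 175 beside 38.7 to 59.9, and F3 176 beside 38.5 to 55.1. In the same library Kng2 had 72.6 CPM beside 34.5 to 39.6, and Lgalsl 75.7 beside 46 to 51. In BKC 1 replicate 2, Mmp12 had 75.9 CPM beside 30.5 to 35.5, Fam25a 65.9 beside 7.25 to 12.7, Tkt 391 beside 265 to 279, and Rbsn 13.4 beside 20.8 to 22.2. In BKC 1 replicate 3, Akap14 had 3.56 CPM beside 1.86 to 2.08, Pdgfra 64.6 beside 74.6 to 76.2, and Rsph4a, of the radial spoke of cilia, 8.84 beside 9.41 to 9.42. Circadian clock genes averaged 4.46 log2 CPM in BKC 1 replicate 1, beside 4.22 to 4.25.

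In BKC 0.5 replicate 3, RT1-Db1 had 718 CPM beside 337 to 400 in the other BKC 0.5 libraries, and Rsph1, another radial spoke gene, 17.4 beside 25.4 to 25.9. Ciliated cell and axoneme genes averaged 4.23 log2 CPM there, beside 4.70 to 4.78, and p53 target genes 4.32, beside 4.14 to 4.16. In BKC 0.5 replicate 2, Syt6 had 2.94 CPM beside 1.15 to 1.37, complement genes averaged 6.23 log2 CPM beside 6.62 to 6.70, and collagen and matrix genes 7.62 beside 7.83 to 7.86. In BKC 0.5 replicate 4, Cyp26b1, which degrades retinoic acid, had 120 CPM beside 53.8 to 61.7, and annexin and membrane repair genes averaged 7.41 log2 CPM beside 7.49 to 7.50.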

How the results depend on the processing

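edgeR called 0 genes between BKC 1 and BKC 0.5 under RLE size factors, without a low-count filter, with 10 counts in 8 libraries, in the 2 groups alone, in the 12 BKC libraries alone and without each of the 8 libraries (0 to 0), whereas DESeq2 called 1 and the fold rule without adjustment gave 195. With the replicate number as a block it called 0, over all libraries and in the 2 groups alone. For same-numbered libraries of the 2 doses the correlations of their deviations from the group mean were 0.08, -0.02, -0.13 and 0.18. The best match in BKC 0.5 was the same-numbered library for replicates 1 and 4, but not for replicates 2 and 3. Whether such libraries share more than a number cannot be told from these values. DESeq2 called 1160 genes between BKC 0.5 and BKC 0.25, 17 for the step difference, 11 for BKC minus ADEB18 and 1279 between ADEB18 0.5 and Control. Leaving out 1 library gave 50 to 1230 genes between BKC 0.5 and BKC 0.25, 0 to 9 for the step difference, 0 to 2 for BKC minus ADEB18, 1067 to 1849 between BKC 1 and Control, 457 to 2097 between BKC 0.5 and Control, and 288 to 822 between ADEB18 0.5 and Control. The log2 fold change of Krt7 ran from -0.026 to 0.54, reversing without BKC 1 replicate 4. The median of neutrophil chemokines ran from 0.046 to 0.35 and that of annexin genes from 0.014 to 0.11. The causes were not tested. At 4 libraries a side, 60.4% of genes had an interval inside 2-fold either way, which limits what the count of 0 says of the rest.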
